A study of Homo sapiens with 12 samples.

Results

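The kallikrein-related peptidases described here are KLK5, KLK6, KLK7, KLK8, KLK10, KLK11, KLK12 and KLK13, chosen by their gene symbols. All 8 were found among the 23346 genes measured by RNA-seq in 2 human pancreatic adenocarcinoma lines, SW1990 and CFPAC-1. Cells of each line were stained with GCTM-5, an antibody to a glycoconjugate on the surface of duct-like progenitor and pancreatic cancer cells, and sorted by flow cytometry. The 4 groups were GCTM-5 negative SW1990, GCTM-5 positive SW1990, GCTM-5 negative CFPAC-1 and GCTM-5 positive CFPAC-1, with 3 samples in each and 12 in all, and the question was which genes differ between antigen-bearing and antigen-free cells of the same line. The labels name no drug treatment or engineered allele in any group. Sorting kept the brightly stained and the unstained cells, with the intermediate ones discarded, and each line stands for 1 tumour, so the comparison of the lines concerns these lines.

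Kallikreins are secreted serine proteases, made as inactive precursors that other proteases, kallikreins among them, activate by cleavage. They are best known from the skin surface, where they cut the junctions that hold the outermost cells together and where inhibitors such as LEKTI, the product of SPINK5, restrain them. Several are made by ducts and glands, and some are abundant in adenocarcinomas. The genes stand side by side in a cluster on chromosome 19.

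In 6 of the 8 genes, GCTM-5 positive SW1990 cells carried far more mRNA than GCTM-5 negative SW1990 cells. The genes KLK5, KLK6, KLK7, KLK8, KLK10 and KLK11 all rose, with no overlap between the samples of the groups. In CFPAC-1 the same staining split gave no such rise, and both CFPAC-1 populations held KLK6, KLK10, KLK8 and KLK11 at high or moderate levels. Summed over the 8, the negative SW1990 cells held the least kallikrein mRNA.

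On GRCh37 the 8 genes lie on the minus strand of chromosome 19 between 51446559 and 51568371, a span of 121.8 kb. From the low-coordinate end the order is KLK5 (51446559 to 51456349), KLK6 (51461887 to 51472929), KLK7 (51479724 to 51487355) and KLK8 (51499263 to 51505967). KLK10 (51515995 to 51523431), KLK11 (51525472 to 51531295), KLK12 (51532348 to 51538486) and KLK13 (51558883 to 51568371) follow. KLK9, between KLK8 and KLK10, runs from 51505764 to 51512890 and overlaps the start of KLK8, so that reads in the overlap cannot be assigned to one of the pair from these values.

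The promoters of KLK6, KLK10 and KLK11 are shown because these were the most abundant of the genes that rose in positive SW1990 cells. Each is the 250 bases before a RefSeq transcript start on GRCh38.p14, minus strand, and where a gene has several starts the one nearest the gene's 3′ end is given. The windows are chr19:50969592-50969841 for KLK6, chr19:51019710-51019959 for KLK10 and chr19:51026617-51026866 for KLK11, and capitals mark any match to the motifs named after them.
KLK6: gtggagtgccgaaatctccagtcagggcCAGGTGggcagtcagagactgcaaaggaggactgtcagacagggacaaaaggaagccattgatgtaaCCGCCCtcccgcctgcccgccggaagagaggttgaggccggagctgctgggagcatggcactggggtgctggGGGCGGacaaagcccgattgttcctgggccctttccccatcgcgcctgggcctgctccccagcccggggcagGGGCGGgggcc
KLK10: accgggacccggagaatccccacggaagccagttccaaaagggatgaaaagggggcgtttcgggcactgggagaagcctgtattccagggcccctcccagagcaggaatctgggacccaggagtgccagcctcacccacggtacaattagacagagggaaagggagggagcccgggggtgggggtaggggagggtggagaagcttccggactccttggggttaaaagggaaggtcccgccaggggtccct
KLK11: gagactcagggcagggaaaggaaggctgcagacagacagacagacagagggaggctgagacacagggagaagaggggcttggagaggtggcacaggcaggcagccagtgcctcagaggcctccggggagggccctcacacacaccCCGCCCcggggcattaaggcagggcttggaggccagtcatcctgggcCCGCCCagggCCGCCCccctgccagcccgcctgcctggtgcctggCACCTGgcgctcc

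RefSeq windows were found for 7 of the 8 genes, 12 windows in all, and KLK8 had no entry. Both strands were searched for 5 motifs, and matches of different motifs did not overlap in these windows. The E-box CACCTG, which ZEB and SNAI repressors bind, stood in 3 of the 12 windows, of KLK6, KLK7 and KLK11, and in 17.5% of 35116 windows of all genes. The GC box GGGCGG stood in 7 of 12, of KLK6, KLK7, KLK11 and KLK13, against 42.6% of all. The letters TATAAA (10.7% of all windows), the AP-1 motif TGANTCA (6.57%) and the GRHL motif AACCGGTT (0.117%) were in none of the 12. In the KLK6 window the E-box begins at -222 from the start and GC boxes at -155, -83 and -11. In the KLK11 window the E-box begins at -13 and GC boxes at -105, -58 and -48. The KLK10 window printed here has no match to any of the 5. The other KLK10 window and the other KLK11 window, which are not printed, have none either. Whether these motifs bear on the changes was not tested.

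Values are RPKM, read counts scaled to gene length and library size, as deposited, so levels can be compared between genes. Libraries held between 9969697 reads (positive CFPAC-1 replicate 3) and 26159330 reads (replicate 1 of the same group), as worked out from the values. Differences are on the log2(RPKM + 0.1) scale from limma, which understates the change of genes near 0, and p-values are 2-sided and Benjamini-Hochberg adjusted over 16236 tested genes. A gene was called in a comparison of groups when it differed by over 2-fold with an unadjusted p under 0.01. The study describes the 3 samples of a group as coming from separate sorts, and no source used here says whether the sorts drew on separate cultures, so p-values measure the spread between sorts, which may be technical. In sorted bulk cells, fewer cells that make an mRNA and less of it in each cell cannot be told apart.

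Of the 8 kallikreins, 6 rose in GCTM-5 positive against negative SW1990 cells and none fell, beside 4.59% of tested genes called higher and 7.48% called lower. The median log2 difference of the 8 was 2.82, beside -0.04 over all tested genes. The same 6 had every positive sample above every negative one, beside 17.9% of tested genes, while none was wholly below, beside 25.4%.

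KLK6, also called neurosin, is a trypsin-like protease. It measured 10.0, 5.37 and 13.2 RPKM in the negative SW1990 samples and 239, 245 and 270.4 in the positive ones. All positive samples were far above all negative samples, at means of 251 ± 16.7 and 9.53 ± 3.93 RPKM (SD, n = 3). The log2 difference was 4.80 with a standard error of 0.27 (limma, adjusted p = 2.34e-07), a 26.4-fold ratio of the means.

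KLK10, first described as a gene of normal epithelial cells that tumours lose, was the most abundant of the 8 in negative SW1990 cells, at 24.8, 21.7 and 33.5 RPKM. In the positive samples it stood at 278, 332 and 305 RPKM. The lowest positive sample lay well over the highest negative one, and the log2 difference was 3.53 with a standard error of 0.18 (limma, adjusted p = 1.58e-07). The ratio of means was 11.4, so KLK10 rose from a higher base and by a smaller factor than KLK6.

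KLK11, a trypsin-like protease also called hippostasin, went from 0.768, 0.424 and 0.707 RPKM to 6.55, 12.3 and 12.1. KLK8, the trypsin-like protease neuropsin, had 0 reads in negative replicates 1 and 2 and 4 reads (0.197 RPKM) in replicate 3, and it measured 0.853, 3.49 and 2.41 RPKM in the positive samples. For both genes positive replicate 1 was the lowest of its group and still above every negative sample. KLK11 changed by 3.80 log2 units (standard error 0.26, limma, adjusted p = 8.98e-07) and KLK8 by 3.83 (standard error 0.49, limma, adjusted p = 0.000108). Pooled over the 3 libraries of each group, KLK8 reads were 38.7 times as frequent in positive cells, with an exact 95% interval of 14.8 to 144 that covers counting error only.

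KLK5 and KLK7 both rose in SW1990, at levels under 1 RPKM there. They are the trypsin-like and chymotrypsin-like enzymes of the outer skin, and KLK5 can activate KLK7. KLK5 had 4, 0 and 0 reads in the negative samples (0.125, 0 and 0 RPKM) and 16, 15 and 9 in the positive ones (0.528, 0.565 and 0.325 RPKM). KLK7 also had 4, 0 and 0 reads in the negative samples (0.0912, 0 and 0 RPKM), and 14, 14 and 21 in the positive ones (0.338, 0.386 and 0.555 RPKM). At this depth a count of 0 allows up to 3 reads, which is 0.109 RPKM for KLK5 and 0.0794 RPKM for KLK7 in negative replicate 3. Neither gene overlapped between the groups.

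The log2 differences were 2.10 for KLK5 (standard error 0.43, limma, adjusted p = 0.00303) and 2.06 for KLK7 (standard error 0.32, limma, adjusted p = 0.000446). Pooled read ratios were 11.4 for KLK5 (exact 95% interval 4.11 to 43.8) and 13.9 for KLK7 (5.11 to 53.2). With a pseudocount of 1 instead of 0.1, the differences of KLK5 and KLK7 shrank to 0.50 and 0.47 and were no longer called.

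KLK12 and KLK13, both trypsin-like, did not pass the test in SW1990. KLK12 had no read in any negative sample and 1, 1 and 0 reads in the positive ones, so no fold is given. KLK13 measured 0.0774, 0.341 and 0.270 RPKM in negative samples and 0.328, 0.187 and 0.673 in positive ones. The KLK13 groups overlapped, and the log2 difference was 0.57 with a 95% interval from -0.37 to 1.52 (limma, adjusted p = 0.371).

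**Figure D1:**
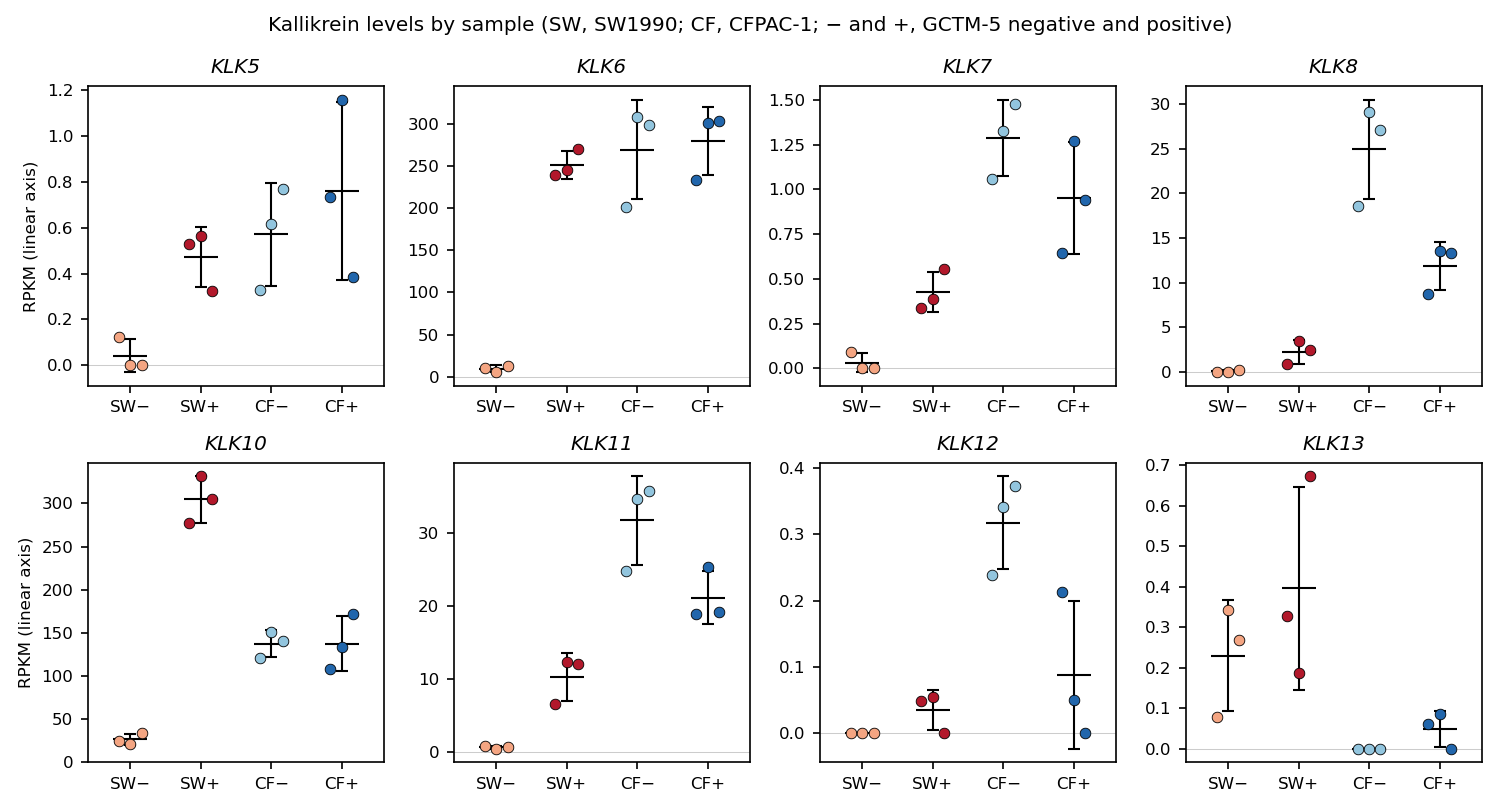
RPKM of each of the 8 kallikreins in the 12 samples, on linear axes that differ between panels, with 1 point per sample and bars for the mean and SD of each group of 3 (SW, SW1990, and CF, CFPAC-1, each GCTM-5 negative or positive). KLK6 and KLK10 stand highest, and in 6 genes the 3 negative SW1990 points lie below the 3 positive SW1990 points.

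In CFPAC-1 the same 8 genes gave 1 call, KLK12, which was lower in positive cells, beside 4.13% of tested genes called lower, 5.65% called higher and 9.78% called in either direction. KLK12 passed the filter of a mean of 0.1 RPKM only through negative CFPAC-1, so this call is not independent of the filter. The median log2 difference of the 8 was -0.23, beside 0.05 over all tested genes. KLK8 and KLK12 had every positive sample below every negative one, beside 20.4% of tested genes, and none had every sample above, beside 28.1%.

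KLK6 measured 201, 308 and 299 RPKM in negative CFPAC-1 samples and 233, 301 and 303 in positive ones, and the values overlapped throughout. Its log2 difference was 0.07, with a 95% interval from -0.52 to 0.65 (limma, adjusted p = 0.877). KLK10 measured 121, 151 and 141 RPKM in negative and 109, 133 and 171 in positive samples, with a log2 difference of -0.02 and an interval from -0.41 to 0.38 (limma, adjusted p = 0.958). Both intervals lie within a 2-fold change, in contrast to the rises in SW1990, although the direction of so small a difference turned with the choice of samples.

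KLK8 measured 18.6, 29.1 and 27.1 RPKM in negative CFPAC-1 cells and 8.72, 13.6 and 13.3 in positive ones. Every positive sample was below every negative one, at means of 11.9 ± 2.73 and 24.9 ± 5.57 RPKM (SD, n = 3), yet the gene missed the threshold, with a log2 difference of -1.07 (95% interval -2.14 to 0.01, limma, unadjusted p = 0.0519, adjusted p = 0.111). It was called with the spread estimated in CFPAC-1 alone (-1.07, adjusted p = 0.0255), with a pseudocount of 1 (-1.01, adjusted p = 0.0158) and from recovered reads (-1.14, adjusted p = 0.0035, all limma).

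KLK11 measured 24.8, 34.7 and 35.8 RPKM in negative and 18.96, 25.3 and 19.2 in positive CFPAC-1 samples, which overlap at 1 sample a side. The log2 difference was -0.58 and was not called (limma, adjusted p = 0.106). KLK7 stood at 1.06, 1.33 and 1.48 RPKM against 0.645, 1.27 and 0.940, and KLK5 at 0.329, 0.614 and 0.770 against 0.734, 1.16 and 0.385. Both overlapped, at log2 differences of -0.43 for KLK7 (limma, adjusted p = 0.317) and 0.31 for KLK5 (limma, adjusted p = 0.610).

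KLK12 fell by 1.31 on the log2 scale in CFPAC-1 (standard error 0.39, limma, adjusted p = 0.0220), on very few reads. The negative samples held 5, 8 and 8 reads (0.239, 0.341 and 0.374 RPKM) and the positive ones 6, 1 and 0 (0.214, 0.0496 and 0 RPKM). The 0 came from the shallowest library, where 3 reads would be 0.280 RPKM, above the lowest negative sample. Pooled reads were 2.69 times as frequent in negative cells, with an exact 95% interval of 1.10 to 7.49. The call was lost without positive replicate 2 (-1.22, limma, adjusted p = 0.0570) or positive replicate 3 (-0.93, limma, adjusted p = 0.0657), and KLK12 fell under the level filter without any 1 of the negative samples, which left 7 of the genes tested and none called.

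KLK13 had no read in any negative CFPAC-1 sample, which allows up to 0.122 RPKM in replicate 1, and 2, 2 and 0 reads in the positive ones. No fold is given for KLK13 in this line.

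**Figure D2:**
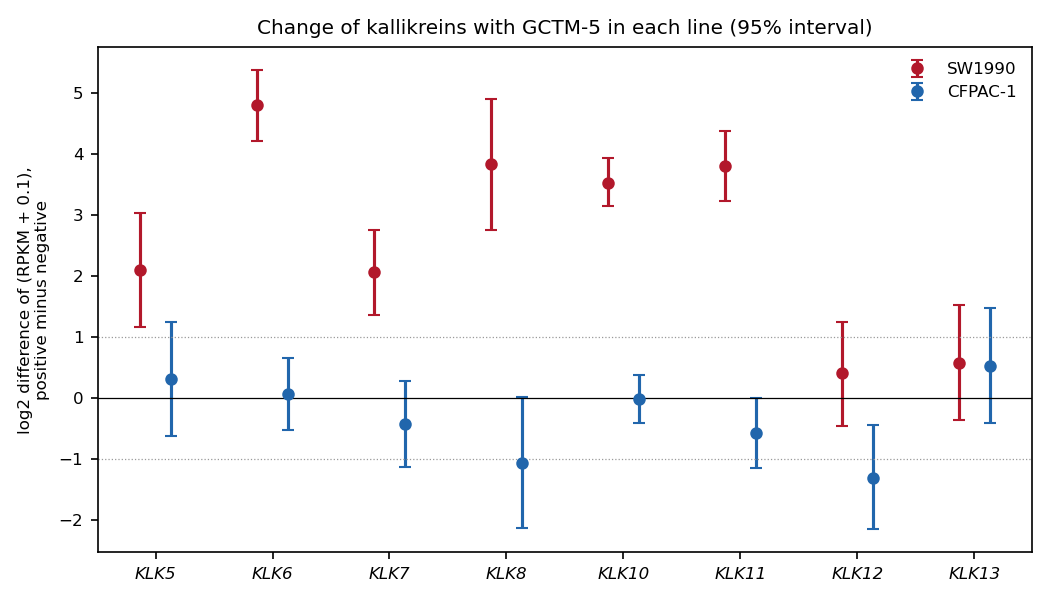
Log2 difference of GCTM-5 positive against negative cells with its 95% interval for each of the 8 kallikreins, in SW1990 and in CFPAC-1. The SW1990 estimates of KLK5, KLK6, KLK7, KLK8, KLK10 and KLK11 lie between 2.06 and 4.80, whereas the CFPAC-1 estimates lie between -1.31 and 0.52.

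The difference between the lines in the positive against negative change was tested directly, with a call at an adjusted p under 0.05. It was called for 7 of the 8, all with the more positive change in SW1990. Of all tested genes 9.16% were called in that direction, 17.8% in the other and 26.9% in either. For KLK12 the fitted change in CFPAC-1 was -1.31, while no SW1990 sample held more than 1 read, so its call reflects the fall in CFPAC-1. As KLK12 passed the level filter only through negative CFPAC-1, this call is not independent of the filter either. The median over the 8 was 3.02 log2 units, beside -0.15 over all tested genes, and centring each sample on its median moved that value over all genes to 0.00. The scaling also moved the share of called genes with the more positive change in SW1990 from 34.0% to 50.0%. It moved the share called higher in CFPAC-1 positive cells from 57.7% to 45.8%, while the number of kallikreins called stayed at 7 and 1.

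KLK8 gave a difference of 4.90 log2 units between the lines (standard error 0.70, limma, adjusted p = 0.000386), since it rose in SW1990 and lay lower in every positive CFPAC-1 sample. For KLK6 the difference was 4.73 (limma, adjusted p = 9.23e-06), for KLK11 4.38 (limma, adjusted p = 1.19e-05) and for KLK10 3.55 (limma, adjusted p = 6.17e-06). KLK7 followed at 2.50 (limma, adjusted p = 0.00185). These 5 kept their call in every alternative in which they were tested.

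The calls for KLK5 (1.79, limma, adjusted p = 0.0478) and KLK12 (1.70, limma, adjusted p = 0.0395) stood close to the threshold. KLK5 lost its call without any 1 of 9 libraries, all but positive CFPAC-1 replicate 2 and the first replicates of negative SW1990 and negative CFPAC-1. Its log2 difference was then 1.43 to 1.99 (limma, adjusted p from 0.0517 to 0.114). KLK12 lost its call without positive CFPAC-1 replicate 2 or 3, any 1 of the negative SW1990 samples or positive SW1990 replicate 1 or 2 (1.33 to 1.70, limma, adjusted p from 0.0609 to 0.0861). KLK13 was not called, at 0.05 (limma, adjusted p = 0.962).

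Among GCTM-5 negative cells, all 8 genes differed between the lines, 7 lower in SW1990 and 1 higher, beside 15.0% of tested genes called lower, 21.9% called higher and 36.9% in all. KLK12 passed the level filter only through negative CFPAC-1, at a mean of 0.318 RPKM and at most 0.0877 in the other groups. KLK13 passed it only through SW1990, at 0.230 and 0.396 RPKM against 0 and 0.0485 in CFPAC-1. Their calls in comparisons that hold these groups are therefore not independent of the filter. No gene of the 8 overlapped between the lines, beside 31.4% of tested genes wholly below and 43.8% wholly above. The median log2 difference of the 8, SW1990 minus CFPAC-1, was -2.93. Over all tested genes it was 0.19, which centring moved to 0.01, with the share called higher in SW1990 going from 59.4% to 49.5%.

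KLK8 had the widest gap, at 24.9 ± 5.57 RPKM in negative CFPAC-1 and 0.0657 ± 0.114 in negative SW1990 (SD, n = 3). Pooled KLK8 reads were 444 times as frequent in CFPAC-1, with an exact 95% interval of 173 to 1630 (limma, log2 difference -7.42, adjusted p = 7.84e-08). KLK11 differed by -5.46 (limma, adjusted p = 5.23e-09), with 31.8 ± 6.06 RPKM against 0.633 ± 0.184, and KLK6 by -4.87 (limma, adjusted p = 1.54e-08), with 269 ± 59.2 against 9.53 ± 3.93. KLK10 differed less, by -2.38 (limma, adjusted p = 2.31e-07), with 138 ± 15.6 against 26.6 ± 6.15 RPKM.

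Of the scarcer genes, pooled KLK7 reads were 42.4 times as frequent in negative CFPAC-1 cells (exact 95% interval 16.3 to 157) and KLK5 reads 13.8 times (5.10 to 52.5). KLK12 was higher in negative CFPAC-1, with a bound of 2.30-fold set against 3 reads a library in SW1990. That bound was 2.10 to 2.59 without single negative CFPAC-1 samples. KLK13 ran the other way, with a bound of 1.96-fold higher in negative SW1990 (limma, log2 difference 1.62, adjusted p = 0.00527). Its bound was 1.48 without negative SW1990 replicate 2 and 1.79 without replicate 3. Both bounds leave out the counting error of the higher group, which for KLK13 held 18 reads. The KLK13 call was lost without negative SW1990 replicate 2 (log2 difference 1.36, limma, adjusted p = 0.0268) or replicate 3 (1.48, limma, adjusted p = 0.0216).

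Among GCTM-5 positive cells the lines differed at 4 of the 8, 2 higher and 2 lower in SW1990, beside 28.5% of tested genes called, 14.8% higher and 13.7% lower. KLK10 and KLK13 had every SW1990 sample above every CFPAC-1 sample, beside 33.9% of tested genes, and KLK7, KLK8 and KLK11 had every one below, beside 30.0%. The rise in SW1990 brought KLK6 to 251 ± 16.7 RPKM, beside 279 ± 40.0 in positive CFPAC-1 cells (SD, n = 3). The samples overlapped, and the log2 difference was -0.14 with a 95% interval from -0.73 to 0.44 (limma, adjusted p = 0.662). KLK10 at 305 ± 27.0 RPKM was higher in positive SW1990 than in positive CFPAC-1 at 138 ± 31.7, by 1.17 log2 units (limma, adjusted p = 0.000135).

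KLK8 and KLK11 stayed lower in positive SW1990, at 2.25 ± 1.33 against 11.9 ± 2.73 RPKM for KLK8 and 10.3 ± 3.25 against 21.2 ± 3.61 for KLK11 (SD, n = 3). Their log2 differences were -2.52 for KLK8 (limma, adjusted p = 0.000797) and -1.07 for KLK11 (limma, adjusted p = 0.00362). KLK11 lost its call without positive CFPAC-1 replicate 2 (-0.94) or positive SW1990 replicate 1 (-0.78), both under 2-fold. KLK8 lost its call with a pseudocount of 0.01 (-2.59, limma, unadjusted p = 0.0203, adjusted p = 0.0345). Without positive SW1990 replicate 1 the KLK8 difference was -1.97 (limma, adjusted p = 0.00262).

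KLK13 was higher in positive SW1990 by 1.67 log2 units (limma, adjusted p = 0.00515), and its pooled reads were 6.85 times as frequent there (exact 95% interval 2.39 to 26.9). The call was lost without positive CFPAC-1 replicate 3 (1.40, limma, adjusted p = 0.0208) or positive SW1990 replicate 3 (1.29, limma, adjusted p = 0.0269). KLK7 lay lower in every positive SW1990 sample but just under 2-fold, at -0.98 (limma, adjusted p = 0.0191). It was called without positive CFPAC-1 replicate 1 (-1.20, limma, adjusted p = 0.0106) or positive SW1990 replicate 3 (-1.14, limma, adjusted p = 0.0185). KLK5 differed by -0.51 (limma, adjusted p = 0.325) and KLK12 by -0.34 (limma, adjusted p = 0.463), and neither was called.

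Summed over the 8 genes, kallikrein mRNA came to 27.8 to 47.9 RPKM in negative SW1990 samples and 525 to 593 in positive SW1990 samples. In CFPAC-1 the sums overlapped, at 367 to 526 RPKM without the antigen and 371 to 509 with it. KLK6 and KLK10 together made up 97.0% to 97.5% of the sum in negative SW1990 and 97.1% to 98.4% in positive SW1990. In CFPAC-1 they made up 87.0% to 87.7% in negative and 91.3% to 93.4% in positive samples, with KLK8 at 5.07% to 5.53% and 2.35% to 2.86%.

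The ratio of KLK10 to KLK6, the 2 abundant genes, was taken in each sample. In negative SW1990 there was 2.47, 4.03 and 2.54 times as much KLK10 as KLK6, and in positive SW1990 1.16, 1.36 and 1.13 times as much. In CFPAC-1, KLK6 led in every sample, with ratios of KLK10 to KLK6 of 0.599, 0.492 and 0.471 in negative and 0.466, 0.442 and 0.565 in positive samples.

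The SW1990 groups did not overlap in this ratio, with a log2 difference of -1.28 between positive and negative cells, and an exact permutation test (2-sided) gave p = 0.1, the smallest that 3 against 3 can give. In CFPAC-1 the difference was -0.08, with overlap (exact permutation p = 0.5). Between the lines the ratio differed by 2.50 log2 units among negative cells and by 1.31 among positive cells, both without overlap (exact permutation p = 0.1 for each). Adjustment over the 4 comparisons cannot bring any of these p-values under 0.1.

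**Figure D3:**
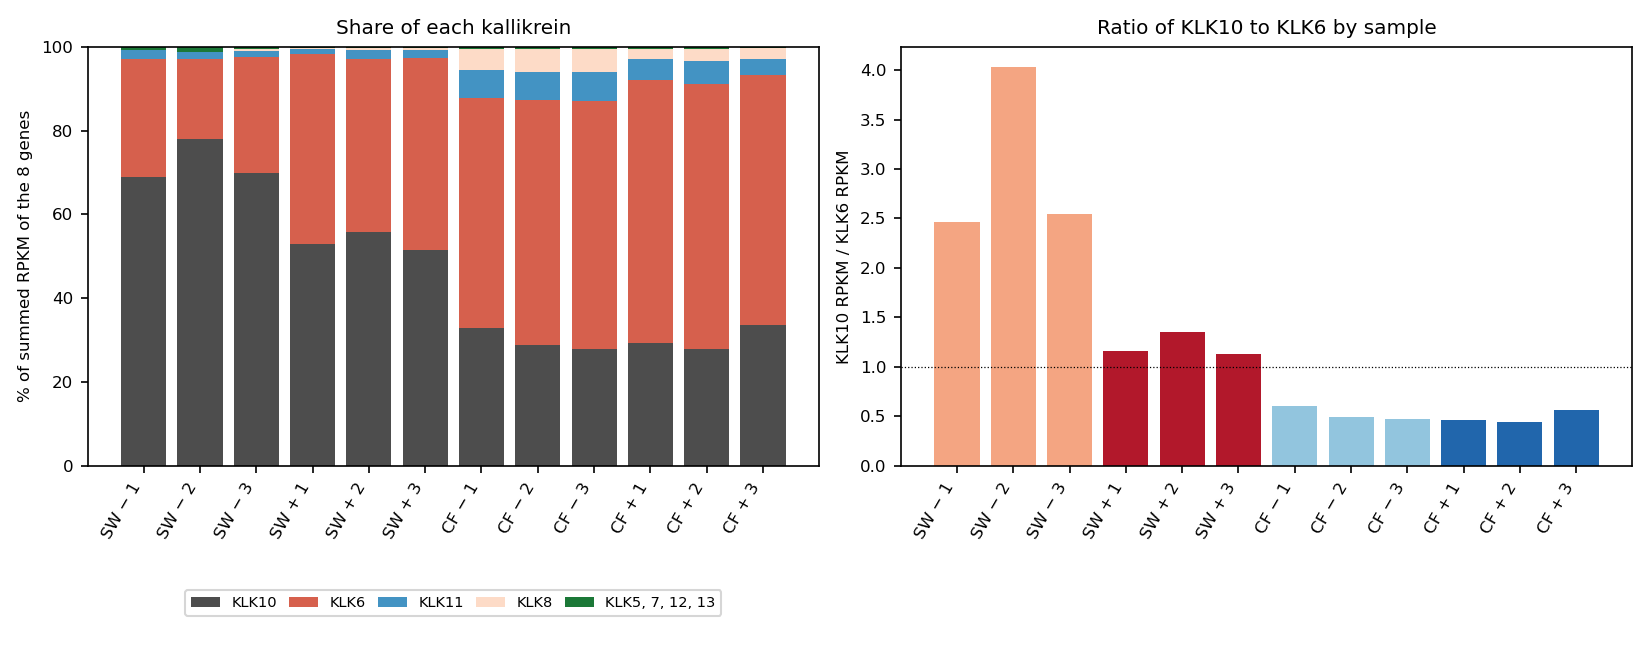
Share of each kallikrein in the summed RPKM of the 8 genes, by sample (left), and the ratio of KLK10 to KLK6 RPKM, by sample, with a line at 1 (right). SW and CF stand for SW1990 and CFPAC-1, with - and + for GCTM-5 negative and positive cells. All 6 SW1990 samples lie above 1 in the ratio, and all 6 CFPAC-1 samples lie below it.

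Across the 12 samples, which fall into 4 groups and share the same libraries, the log2 levels of the 6 genes that rose in SW1990 correlated pairwise at Pearson r of 0.67 to 0.98, with a median of 0.90 over 15 pairs. The highest pair was KLK7 with KLK11 and the lowest KLK8 with KLK10. The r values follow the 4 group means and are a description only.

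The genes whose log2 levels across the 12 samples were most like the mean of the 8 kallikreins, outside the KLK family, were ANKRD22 (Pearson r = 0.995), ITGB6 (0.994), OCLN (0.993), KCNK5 (0.991) and ARHGEF5 (0.990). ITGB6, an epithelial integrin subunit, had group means of 0.842, 11.5, 30.1 and 17.9 RPKM in negative SW1990, positive SW1990, negative CFPAC-1 and positive CFPAC-1. OCLN, which encodes the tight junction protein occludin, had 0.579, 4.01, 7.21 and 5.95 RPKM in the same order. For KLK6 alone the nearest gene was OVOL1 (r = 0.995), an epithelial transcription factor gene, at 0.461, 8.69, 7.83 and 7.95 RPKM. Those nearest to KLK10, KLK8 and KLK11 were SLC45A3 (0.995), B3GNT7 (0.997) and CLDN9 (0.994, a claudin gene). These genes were picked from all tested genes for their likeness.

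The other 7 kallikrein genes of the cluster were mostly near 0. KLK2 had no read in any sample, and 3 of the 7 (KLK1, KLK9 and KLK14) passed the filter of a mean of 0.1 RPKM over the 12 samples. Of these, KLK9 rose in positive SW1990 cells and the other 2 were not called in either line, by limma or voom. KLK9 had no read in any negative SW1990 sample and 13, 33 and 10 reads in the positive ones (0.466, 1.35 and 0.393 RPKM). The rise was at least 7.15-fold against 3 reads a library (limma, log2 difference 2.89, adjusted p = 0.000116), and at least 4.17-fold without positive replicate 2. The call was lost with a pseudocount of 1 (0.75, limma, adjusted p = 0.00403). KLK9 was lower in every positive CFPAC-1 sample, with a log2 difference of -0.85 that was not called (limma, adjusted p = 0.0978). With KLK9 included, the run of 7 neighbouring genes from KLK5 to KLK11 was called higher in positive SW1990 from end to end.

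Of 8 flanking genes beside the cluster 4 passed the filter, and none of these was called in SW1990 by limma or voom or had an unadjusted p under 0.05. Of all tested genes 12.1% were called there by limma. CLEC11A and ACPT had at most 6 and 7 reads in any SW1990 sample, too few to show an absence of change. C19orf48, on the KLK1 side, still had every positive SW1990 sample above every negative one, at 151 to 183 against 118 to 147 RPKM, beside 17.9% of tested genes. This gene was called higher in positive CFPAC-1 cells by 1.02 log2 units (limma, adjusted p = 0.000177), where the kallikreins were not. It fell just under 2-fold without negative replicate 3 (0.98) or positive replicate 3 (0.90) of that line and with samples centred on their median (0.92).

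**Figure D4:**
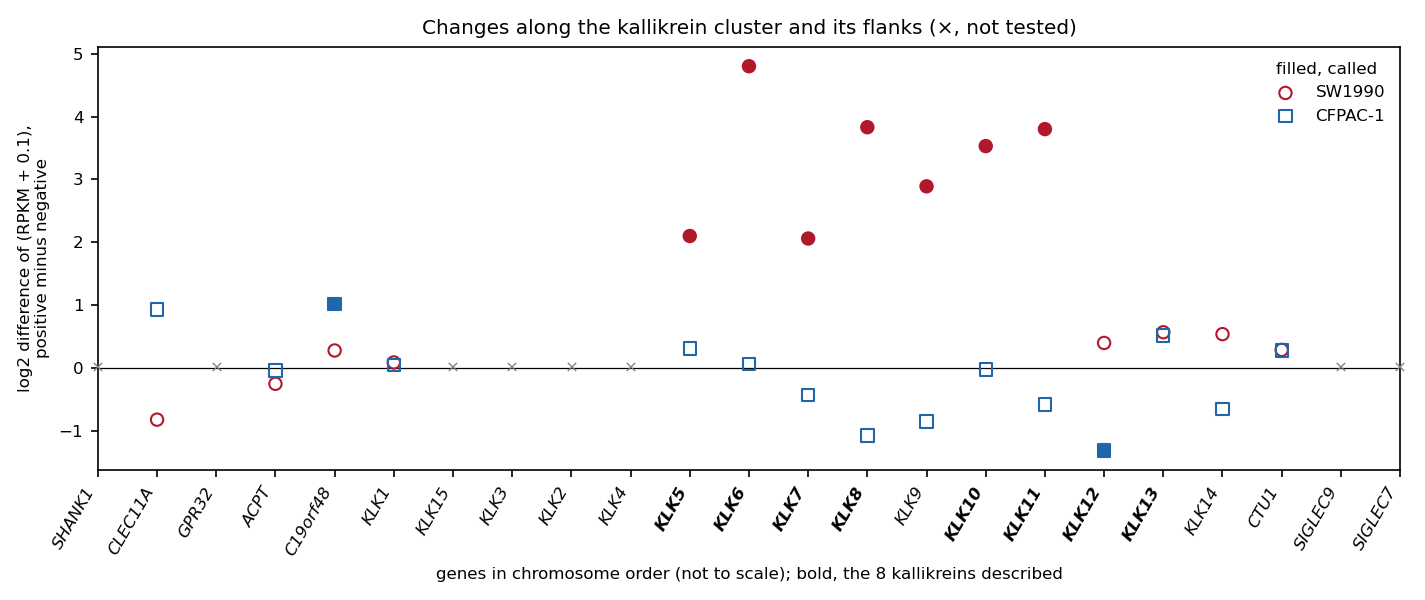
Log2 difference of GCTM-5 positive against negative cells in SW1990 and in CFPAC-1 for the tested kallikreins and flanking genes, placed by their order along chromosome 19, not to scale. Filled marks are called genes and crosses are genes not tested. The 7 genes from KLK5 to KLK11 stand between 2.06 and 4.80 in SW1990, and in CFPAC-1 they stand between -1.07 and 0.31.

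Membrane-bound proteases and their inhibitors, which act at the same cell surface, rose alongside the kallikreins in SW1990. Of the 5 listed genes 4 were tested, and all 4 rose in positive SW1990 cells, beside 4.59% of tested genes called higher. In CFPAC-1 none of the 4 was called by limma or by voom, although 3 had an unadjusted p under 0.05 and a lower level in positive cells. Of all tested genes 9.78% were called there by limma. ST14, which encodes matriptase, measured 5.11 ± 1.38 RPKM in negative and 49.7 ± 8.26 in positive SW1990 (SD, n = 3, limma, log2 difference 3.28, adjusted p = 3.8e-07). In CFPAC-1 it stood at 66.7 ± 3.42 and 69.3 ± 17.3 RPKM. PRSS8, which encodes prostasin, rose by 3.59 log2 units in SW1990 (limma, adjusted p = 7.58e-06), and the genes of their inhibitors SPINT1 and SPINT2 by 1.71 and 1.57. The difference between the lines was called for all 4, with the more positive change in SW1990, beside 9.16% of tested genes called in that direction. The median was 2.82 log2 units, beside -0.15 over all tested genes.

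Of 7 listed genes for secreted protease inhibitors 4 were tested, and none was called in SW1990 by limma or voom or had an unadjusted p under 0.05 there. Of all tested genes 12.1% were called in SW1990 by limma. SERPINA3 still lay lower in every positive SW1990 sample, at 7.09 ± 1.57 against 13.3 ± 2.35 RPKM (SD, n = 3), beside 25.4% of tested genes. SPINK5 was scarce, at group means of 0.108 and 0.226 RPKM in negative and positive SW1990 and 0.170 and 0.599 in CFPAC-1. In CFPAC-1 its positive samples, at 0.698, 0.862 and 0.236 RPKM, all lay above the negative ones, at 0.147, 0.179 and 0.183. SPINK5 just missed a call there (limma, log2 difference 1.24, unadjusted p = 0.0105, adjusted p = 0.0327). It was called by voom (1.77, adjusted p = 0.0112) and without positive CFPAC-1 replicate 3 (1.70, limma, adjusted p = 0.00348). SERPINA3, which encodes alpha-1-antichymotrypsin, fell by 1.75 on the log2 scale in positive CFPAC-1 cells (limma, adjusted p = 0.0158). It had 101.5, 91.9 and 88.7 RPKM in negative and 9.67, 62.6 and 35.8 in positive samples, with no overlap, and positive replicate 1 was far the lowest. Without that sample the log2 difference was -0.98, under 2-fold and not called (limma, adjusted p = 0.0129). The call was also lost without any 1 of the negative CFPAC-1 samples (-1.69 to -1.79, limma, adjusted p from 0.0409 to 0.0469) and with each line fitted alone (-1.75, limma, adjusted p = 0.101).

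Of 8 genes of substrates and receptors, 5 were tested. F2RL1, which encodes PAR2, a receptor that some kallikreins cleave, rose in SW1990 from 33.4 ± 1.98 to 67.5 ± 8.81 RPKM (SD, n = 3, limma, log2 difference 1.00, adjusted p = 9.8e-05). The rise was at the 2-fold threshold, and the call was lost without negative SW1990 replicate 1 (0.96) or positive SW1990 replicate 2 (0.91). In CFPAC-1 it stood at 208 ± 28.7 and 211 ± 23.3 RPKM. F2R, which encodes the thrombin receptor PAR1, fell in both lines, by 1.87 in SW1990 and by 1.89 in CFPAC-1 on the log2 scale (limma, adjusted p = 2.01e-06 and 1.18e-05). CDSN, which encodes corneodesmosin, a protein of skin cell junctions that KLK5 and KLK7 cut, rose only in the CFPAC-1 comparison, from 1.65 ± 0.218 to 5.78 ± 1.68 RPKM (limma, adjusted p = 0.000248), and the difference between the lines was called (-1.67, limma, adjusted p = 0.00298).

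Genes of squamous differentiation, which in skin accompany the kallikreins, rose in both lines. Of 10 listed genes 9 were tested, and by limma 7 rose in SW1990 and 5 in CFPAC-1, with median log2 differences of 3.61 and 1.88. Of all tested genes 4.59% were called higher in SW1990 and 5.65% in CFPAC-1. Voom called 8 of the 9 in SW1990 and 4 in CFPAC-1. SPRR2A, called by voom in CFPAC-1, had 0 reads in the negative samples there and 12 in the positive ones. KRT6A, a keratin, rose by 3.64 in SW1990 and by 4.60 in CFPAC-1 (limma, adjusted p = 2.52e-07 and 8.57e-07), and IVL, the envelope protein involucrin, by 3.61 and 3.12. In CFPAC-1, then, 5 of these genes rose by limma and 4 by voom, while none of the 8 kallikreins was called higher by either. The 2 kallikreins with an unadjusted p under 0.05, KLK11 and KLK12, lay lower.

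The labelled cell type was checked against markers of pancreatic duct epithelium, and all 7 were above 0 in every group. Their summed level was 1642 to 1985 RPKM in negative SW1990, 4404 to 4895 in positive SW1990, 5539.9 to 6299 in negative CFPAC-1 and 6782 to 8287 in positive CFPAC-1. Of the 7, 5 rose in SW1990 with the kallikreins, beside 4.59% of tested genes called higher. None was called in CFPAC-1 by limma or voom, beside 9.78% of tested genes called by limma, although 3 had an unadjusted p under 0.05. In CFPAC-1, 4 of the 7 had every positive sample above every negative one, beside 28.1% of tested genes, and none was wholly below. All 5 mesenchymal markers fell in positive SW1990, from a summed 1289 to 1451 RPKM to 201 to 372, beside 7.48% of tested genes called lower. In CFPAC-1, 2 of the 5 were called lower, beside 4.13%, and 4 lay lower in every positive sample, beside 20.4%. The CFPAC-1 sum was 551 to 752 in negative and 420.3 to 589 in positive samples. PTPRC and CD3E, which mark leukocytes, were near or at 0 in every group, while LYZ measured 0.816 to 1.79 RPKM in SW1990 and 42.8 to 76.9 in CFPAC-1. Of the 4 acinar genes, CPA1 and AMY2A were at 0 in every group and PRSS1 had at most 1 read in a sample. CEL, which encodes a lipase, measured 0.571 ± 0.0589 RPKM in negative and 0.341 ± 0.0175 in positive SW1990, lower in every positive sample but not called (limma, log2 difference -0.60, unadjusted p = 0.0481, adjusted p = 0.128), and 0.0891 and 0.0751 RPKM in CFPAC-1. Summed over the 4, the level was 0.557 to 0.617 RPKM in negative SW1990, 0.321 to 0.409 in positive SW1990, 0.0421 to 0.129 in negative CFPAC-1 and 0.0321 to 0.126 in positive CFPAC-1. The part of these epithelial and mesenchymal shifts in the kallikrein result was not tested.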

How the data were processed

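RNA-seq of sorted GCTM-5 negative and positive SW1990 and CFPAC-1 cells was analysed, with 3 samples in each of 4 groups. Per the labels, polyA RNA was made into strand-specific libraries. The authors aligned the reads to GRCh37 (hg19) and computed with QuasR the RPKM that were deposited; the labels also name bcl2fastq. The gene annotation, use of strand, handling of multiply mapping reads and version are not given in the sources used here, so overlapping or antisense genes may share reads. Columns were matched to samples by title, and groups were taken from the labels.

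From these values, log2(RPKM + 0.1) was fitted with limma 3.58.1 in R 4.3.3 as 4 group means over all 12 samples, with an eBayes trend, for the 16236 genes with a mean of at least 0.1 RPKM. All 8 kallikreins passed this filter, KLK12 only through negative CFPAC-1 and KLK13 only through SW1990. Calls used over 2-fold and an unadjusted p under 0.01, after the study's thresholds, and for the difference between lines a Benjamini-Hochberg adjusted p under 0.05. The deposited unit being RPKM, limma on the log scale was the main test, and the study's own count test was not run.

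Library totals were found from single-exon genes of GENCODE 44 on GRCh37, as the totals that make RPKM times length whole, and every one of the 19654 genes above 0 then gave whole reads to within 0.01 read. Totals were 9969697 to 26159330 reads. Recovered reads served for read numbers, exact 95% intervals of pooled reads, lower bounds against 3 reads a library and limma's voom as an alternative. Intervals cover counting error only, since PCR copies are not independent molecules. Bounds set the mean of the higher group against 3 reads and leave out its own counting error. The runs were paired-end, and the sources used here do not say whether mates were counted separately. If they were, intervals and bounds are too tight. The fits were tested on simulated data.

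Genes were named by this rule: all 8 kallikreins, any gene of the context lists where its list is described, and the genes of highest Pearson r to the kallikreins over the 12 samples. The members and lists were chosen with earlier results of these data known, and 1 gene of the lists is not reported here. Alternatives were other pseudocounts, filters, scalings, spread models, thresholds, each line alone, a replicate block and leaving out each sample. Python 3.11.15 with pandas 2.3.3 was used for the rest. Promoter windows came from RefSeq on GRCh38.p14.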

Additional observations from a re-analysis of the deposited data

Results flagged for a closer look

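The change between GCTM-5 positive and negative cells differed between SW1990 and CFPAC-1 for 7 of the 8 kallikreins, tested as a difference of differences in limma at an adjusted p under 0.05, beside 26.9% of tested genes. The size, SW1990 minus CFPAC-1 on the log2 scale, was 4.90 for KLK8, 4.73 for KLK6, 4.38 for KLK11, 3.55 for KLK10 and 2.50 for KLK7. It was 1.79 for KLK5 and 1.70 for KLK12, which lost the call in many of the alternatives. KLK12 passed the level filter only through negative CFPAC-1, so its place among the 7 is not independent of that filter. No group held 4 or more samples, so single samples were not tested for standing apart.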

How the results depend on the processing

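In SW1990 the number of kallikreins called was 6, and it was 4 with a pseudocount of 1 and with a mean RPKM of at least 1, which left 4 of the genes tested. Leaving out any 1 library gave 6. In CFPAC-1 the count of 1 went to 0 with a mean RPKM of at least 1, with a pseudocount of 0.01 and with a replicate block, and was 0 to 1 without single libraries. The call moved from KLK12 to KLK8 with a pseudocount of 1, each line fitted alone and voom. The count for the difference between lines was 7, fell to 4 with a mean RPKM of at least 1, and was 5 to 6 without single libraries. Among negative cells the count of 8 went to 4 with a mean RPKM of at least 1 and to 5 with a pseudocount of 1, and was 7 to 8 without single libraries. Among positive cells it was 4, with 3 to 5 over all alternatives.

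Directions turned in the following cases, none of which had a called value. The CFPAC-1 difference of KLK6 was -0.03 with samples centred on their median and -0.13 without negative replicate 1. That of KLK5 was -0.02 without positive replicate 2, and that of KLK10 was 0.06, 0.00 and 0.14 without negative replicate 2, negative replicate 3 and positive replicate 1. KLK12 among positive cells was 0.11 without positive CFPAC-1 replicate 1. The KLK13 difference between lines was -1.22 with a pseudocount of 0.01 and -1.10 with voom. It was -0.21 without positive CFPAC-1 replicate 3, -0.35 without negative SW1990 replicate 1 and -0.33 without positive SW1990 replicate 3. Without single libraries the ranges ran from -0.02 to 0.67 for KLK5, -0.13 to 0.19 for KLK6 and -0.19 to 0.14 for KLK10 in CFPAC-1, from -0.72 to 0.11 for KLK12 among positive cells and from -0.35 to 0.38 for KLK13 between lines. The cause of these shifts was not tested.

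Over all alternatives the SW1990 differences of KLK6, KLK10, KLK11 and KLK8 kept their call, at 4.44 to 5.08, 3.40 to 3.71, 2.75 to 4.10 and 1.52 to 6.14. Samples with the same replicate number deviated together weakly or not at all. Their r values were 0.185, 0.016 and 0.116 in SW1990, and -0.020, 0.001 and -0.059 in CFPAC-1. For unlike numbers, r ran from -0.254 up to 0.162 within SW1990, while CFPAC-1 gave -0.033 up to 0.042. With 3 replicates a group, such values cannot show whether samples sharing a number came from 1 sort, so pairing was not settled. The main fit treated them as unpaired. With the replicate block as a term, the counts were 6 in SW1990, 0 in CFPAC-1 and 5 for the difference between lines, where KLK5 (adjusted p = 0.0573) and KLK12 (adjusted p = 0.0804) lost their call. Depth limits KLK5, KLK7, KLK12 and KLK13, which rest on under 100 reads in every library, and KLK8 in SW1990.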
